A study of Glycine max and Glycine soja with 189 samples.

Results

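*GmCOL6a* (Glyma05g35151.1) and *GmCOL6b* (Glyma08g04570.1) are a homeologous pair of *CONSTANS*-like genes of soybean. Both were taken by these transcript identifiers from a table of RNA sequencing values, and they are 2 of the 54175 loci in it. Each locus was represented by 1 transcript, and both members were measured in all 189 samples. The samples covered 3 photoperiods, 7 genotypes and 3 time points, with 3 biological replicates in each of the 63 groups. Plants of the shift treatment (LD-SD) had 21 days of LD and then 5 days of SD. Plants under short day (SD) had 10 h of light (6:45 to 16:45), and plants under long day (LD) had 16 h of light (6:45 to 22:45). Samples were taken at T1 (6:30), shortly before the lights came on, at T3 (14:30), in the light under every photoperiod, and at T5 (22:30), which was dark under SD and LD-SD and shortly before lights off under LD. The GEO labels give the first trifoliate leaf of plants at 26 days, whereas the methods of the study describe the whole shoot above the cotyledon, so which tissue was sampled remains uncertain. Those methods also place the sampling of SD and LD plants at the age at which the LD-SD plants were moved to SD, which would make the LD-SD plants older, whereas the labels give 1 age for all. Markers of leaf tissue could not be checked, because none of the locus identifiers was annotated in the tables used here.

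The genotypes were the wild relative *Glycine soja* and 6 cultivated lines of *Glycine max*. Williams 82 and Clark are cultivars, and L65-3366, L66-432, L92-1195 and L74-441 are near isogenic lines that differ at the maturity (E) loci. By the study's records Clark carries e1, E2, E3, E4, e5 and E7. L65-3366 has E1 in place of e1, L66-432 has e2, L74-441 has e3, and L92-1195 differs from L74-441 by E5. Only E2 was recorded for Williams 82, and no allele for *G. soja*. Each inbred line stands for 1 genotype, and its differences from Clark can include loci other than the one named.

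CONSTANS of Arabidopsis is a nuclear protein with zinc-binding B-boxes and a CCT domain that promotes flowering through the mobile florigen FT. Its mRNA follows the circadian clock and its protein is stable only in certain light, which is how the plant reads day length. Soybean is a short-day plant, and its genome holds many *CONSTANS*-like genes in pairs left by a genome duplication. Homeologs of such a pair start as copies, and their mRNA can diverge in level, timing or response to day length.

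mRNA abundance was given as RPKM, a read count divided by the length of the transcript and the size of its library. Mapped reads, recovered from the steps of low values, were between 4.92 and 18.2 M per library. *GmCOL6a* was covered by 65 to 1019 reads (median 357) and *GmCOL6b* by 80 to 1080 reads (median 366) per library. Transcript markers of the genotypes went against the label in 9 libraries. Of these, 4 were replicate A under LD at T1 (Clark, Williams 82, L65-3366 and L66-432), and 5 were under LD-SD at T3 or T5. The library of LD-SD L92-1195 at T5 that carries no matching replicate letter was more like LD-SD at T3 (r = 0.937) than like its own time point (r = 0.868). Results were also computed without these 10 libraries. Under LD-SD, replicate C of L66-432 and of *G. soja* at T1 and replicate A of *G. soja* at T5 were not among them. They were more like SD at the same time point than like LD-SD (r = 0.937 against 0.934, 0.898 against 0.883 and 0.895 against 0.868). In that L66-432 library 68.4% of the recorded reads were mapped, the lowest share of all libraries. The levels are those of bulk tissue, in which fewer cells of a type and less RNA per cell cannot be told apart.

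Over the day, both homeologs were highest before dawn and lowest in the afternoon under SD. *GmCOL6a* averaged 48.1 ± 5.79 RPKM at T1 under SD, 8.11 ± 1.55 at T3 and 32.1 ± 4.95 at T5 (standard deviation, n = 21 each). *GmCOL6b* averaged 48.0 ± 7.37, 10.7 ± 2.40 and 30.3 ± 5.03 RPKM at the same time points. The libraries of T1 and T3 did not overlap for either gene. *GmCOL6a* lay between 38.2 and 61.0 RPKM at T1 and between 5.41 and 10.5 RPKM at T3. *GmCOL6b* lay between 32.2 and 63.9 RPKM at T1 and between 5.57 and 14.8 RPKM at T3. How many other transcripts separated as fully was not counted. In all 7 genotypes the mean of each homeolog was highest at T1 and lowest at T3. The ratio of peak to trough of the means was 5.93 for *GmCOL6a* and 4.48 for *GmCOL6b*.

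Under LD the day course was shallow and its peak lay at T5 rather than T1. *GmCOL6a* averaged 21.3 ± 9.63 RPKM at T1 under LD, against 18.4 ± 5.17 at T3 and 28.2 ± 5.46 at T5 (n = 21 each). *GmCOL6b* averaged 18.96 ± 7.73, 13.4 ± 4.21 and 23.7 ± 3.23 RPKM. The peak-to-trough ratio of the means was 1.54 for *GmCOL6a* and 1.77 for *GmCOL6b*. *GmCOL6a* was highest at T5 in 7 of 7 genotypes, and *GmCOL6b* in 5, with T1 the highest in L66-432 and Williams 82. In Williams 82 this rested on replicate B at T1 (44.1 RPKM), since replicates A and C (15.0 and 20.4 RPKM) lay below all 3 libraries at T5 (21.8 to 25.7 RPKM). Replicate A was itself 1 of the libraries whose markers went against the label, with 0.8% of 125 markers on the side of Williams 82.

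After the shift to SD the peak was again at T1 in all 7 genotypes for both genes, and the homeologs parted in the afternoon. *GmCOL6a* averaged 36.6 ± 5.75 RPKM at T1 under LD-SD, against 13.8 ± 4.14 at T3 and 23.5 ± 4.69 at T5 (n = 21 each). *GmCOL6b* averaged 40.4 ± 5.66, 22.9 ± 4.78 and 22.3 ± 4.45 RPKM. *GmCOL6a* thus had its trough at T3 in all 7 genotypes, and *GmCOL6b* had nearly the same mean at T3 and T5.

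**Figure D1:**
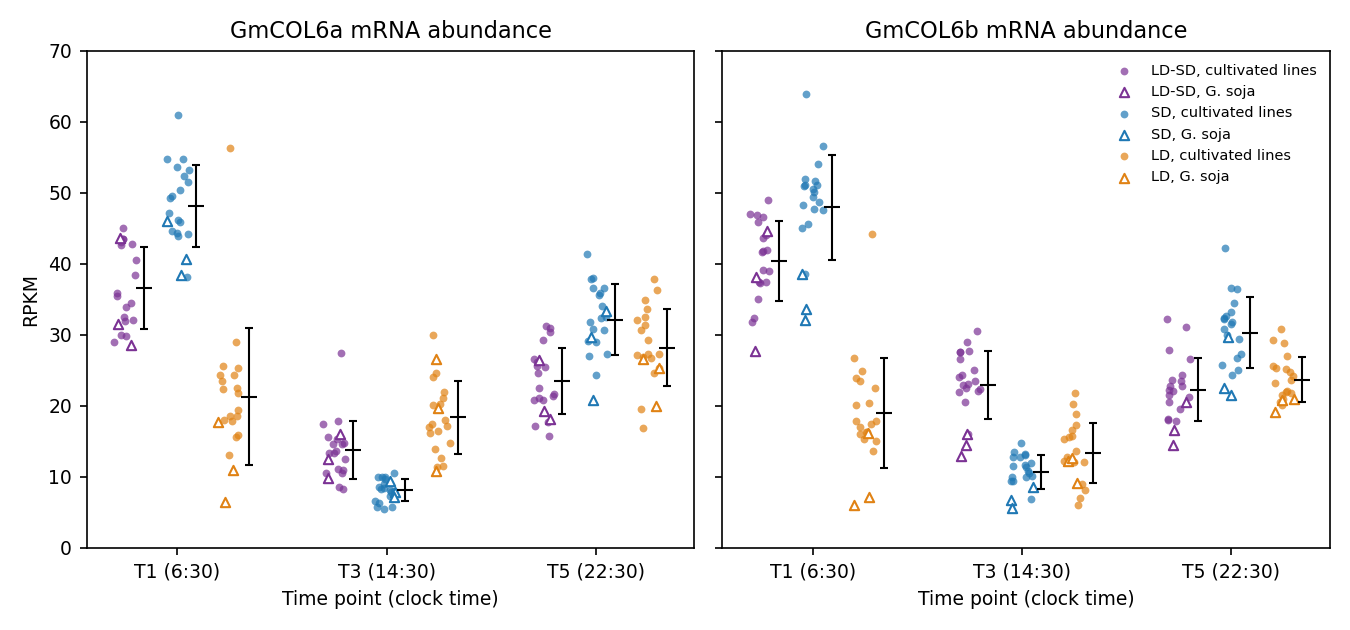
RPKM of *GmCOL6a* and *GmCOL6b* (y axis, linear) in every library at T1, T3 and T5 (x axis), with LD-SD in purple, SD in blue and LD in orange; circles are cultivated lines, triangles *G. soja*, and black bars the mean and standard deviation of 21 libraries. Under SD both genes stand between 32.2 and 63.9 RPKM at T1 and at or below 14.8 RPKM at T3, and under LD-SD *GmCOL6b* averages 22.9 RPKM at T3 against 10.7 RPKM under SD.

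The day courses were tested with limma, a linear model fitted to log2(RPKM + 1) of all transcripts, with Benjamini-Hochberg adjustment over all transcripts tested and a threshold of 0.05. Differences below are on this log2 scale, with the standard error. Both members differed among time points under SD (F = 314 for *GmCOL6a* and 272 for *GmCOL6b*, adjusted p = 2.62e-39 and 4.96e-37), where 85.4% of all transcripts did so. They also differed under LD (F = 19.9 and 41.6, adjusted p = 1.78e-07 and 8.63e-13, 79.6% of all transcripts) and under LD-SD (F = 101 and 65.8, adjusted p = 3.59e-26 and 1.14e-19, 78.7% of all transcripts). Since most transcripts passed these tests, the size and direction of the differences carry more information than the calls.

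At T3 against T1, *GmCOL6a* differed by -2.44 ± 0.10 under SD (adjusted p = 1.21e-38 by limma), by -1.38 ± 0.10 under LD-SD (adjusted p = 5.26e-27) and by -0.15 ± 0.10 under LD (adjusted p = 0.208). The LD value depended on the libraries and the scaling: it was 0.02 without replicate A, -0.37 without replicate C (adjusted p = 0.00955) and -0.34 with a median-of-ratios scaling factor for each library (adjusted p = 0.00598). *GmCOL6b* differed by -2.08 ± 0.09 under SD, by -0.81 ± 0.08 under LD-SD and by -0.44 ± 0.09 under LD between the same time points, and all 3 differences passed the limma test (adjusted p at most 2.02e-05). Called lower at T3 than at T1 were 18917 of 61237 transcripts under SD, 15961 of 61180 under LD-SD and 10900 of 61237 under LD. From T3 to T5 *GmCOL6a* changed by 1.87 ± 0.10 under SD, 0.75 ± 0.10 under LD-SD and 0.62 ± 0.10 under LD, each passing the test. *GmCOL6b* changed by 1.43 ± 0.09 under SD and 0.83 ± 0.09 under LD over the same interval, and by -0.03 ± 0.08 under LD-SD (adjusted p = 0.776, 95% interval -0.20 to 0.13). The LD-SD value averages over genotypes whose means moved in opposite directions. Called higher at T5 than at T3 were 32477 of 61237 transcripts under SD, 22972 of 61180 under LD-SD and 17366 of 61237 under LD. The median differences of all transcripts were 0.17, 0.07 and 0.02. Under LD both genes were higher at T5 than at T1, by 0.47 ± 0.10 for *GmCOL6a* and 0.40 ± 0.09 for *GmCOL6b* (adjusted p = 3.54e-05 and 9.26e-05 by limma). Of all transcripts, 31047 of 61237 were called higher in this comparison, and the median difference was 0.15. With the median-of-ratios factor the differences of *GmCOL6a* and *GmCOL6b* became 0.24 (adjusted p = 0.0544) and 0.17 (adjusted p = 0.119) and no longer passed.

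The 9 levels of each gene were ordered by their means over 21 libraries. For *GmCOL6a* the order was SD T1, LD-SD T1, SD T5, LD T5, LD-SD T5, LD T1, LD T3, LD-SD T3 and SD T3, and a gap larger than the standard deviation of both neighbours separated only the first from the second level and the eighth from the ninth. For *GmCOL6b* the order was SD T1, LD-SD T1, SD T5, LD T5, LD-SD T3, LD-SD T5, LD T1, LD T3 and SD T3, with such gaps only after each of the 3 highest levels. The level of LD-SD T3 was thus the eighth for *GmCOL6a* and the fifth for *GmCOL6b*. By mean RPKM over SD T1, 2.31% of the 73319 transcripts used were above *GmCOL6a* and 2.32% above *GmCOL6b*, against 19.1% and 14.5% at SD T3.

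The first comparison asked how the homeologs differed between SD and LD at each time of day, averaged over the 7 genotypes. Before dawn both were higher under SD, in the afternoon *GmCOL6a* was lower under SD, and at T5 the differences were small. At T1, *GmCOL6a* ranged from 38.2 through a median of 47.1 to 61.0 RPKM in SD libraries and from 6.45 through 19.4 to 56.3 RPKM in LD libraries. Of the 21 LD libraries, 20 lay below every SD library, and the exception was replicate B of Williams 82. *GmCOL6b* ranged from 32.2 through 49.4 to 63.9 RPKM under SD and from 5.96 through 17.4 to 44.1 RPKM under LD at T1, with the same library as the only LD one inside the SD range. The differences were 1.24 ± 0.10 for *GmCOL6a* and 1.38 ± 0.09 for *GmCOL6b* (adjusted p = 2.77e-19 and 1.10e-24 by limma). Both members were called higher under SD, as were 33.0% of all transcripts at T1.

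The LD library of Williams 82 replicate B at T1 had 56.3 RPKM of *GmCOL6a* and 44.1 RPKM of *GmCOL6b*, against 18.6 and 15.0 RPKM in replicate A and 15.6 and 20.4 RPKM in replicate C. The other 20 LD libraries at T1 had at most 29.0 and 26.7 RPKM. It was not among the 10 libraries named above, whereas replicate A of Williams 82 was. Without the library of Williams 82 replicate B the differences at T1 were 1.32 and 1.44, an alternative chosen after seeing the data.

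At T3, *GmCOL6a* ranged from 5.41 through a median of 8.11 to 10.5 RPKM under SD and from 10.9 through 17.5 to 30.0 RPKM under LD, so that the 21 SD libraries lay below all 21 LD libraries. The difference was -1.06 ± 0.10 (adjusted p = 6.48e-16 by limma), and how many other transcripts separated as fully was not counted. *GmCOL6b* ranged from 5.57 through 10.9 to 14.8 RPKM under SD and from 6.08 through 12.7 to 21.7 RPKM under LD, and the groups overlapped widely. Its difference was -0.27 ± 0.09 (adjusted p = 0.0083 by limma). Both members were called lower under SD at T3, as were 43.6% of all transcripts, and the median difference of all transcripts was -0.10. The call for *GmCOL6b* was lost with the median-of-ratios factor (-0.12, adjusted p = 0.26), without *G. soja* (-0.20, adjusted p = 0.0593), without replicate B (-0.16, adjusted p = 0.142) and without replicate C (-0.26, adjusted p = 0.0871).

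At T5, *GmCOL6b* ranged from 21.5 through a median of 30.7 to 42.2 RPKM under SD and from 19.1 through 23.2 to 30.8 RPKM under LD, and 10 of the 21 SD libraries lay above every LD library. It was called higher under SD (0.34 ± 0.09, adjusted p = 0.00113 by limma). *GmCOL6a* ranged from 20.9 through 32.3 to 41.4 RPKM under SD and from 16.9 through 27.2 to 37.9 RPKM under LD, with a difference of 0.19 ± 0.10 (adjusted p = 0.102). Thus 1 of the 2 members was called higher under SD at T5, where 35.3% of all transcripts were. The change of the photoperiod difference over the day passed the test for both members (F = 127 and 83.0, adjusted p = 1.72e-25 and 5.01e-20 by limma), as it did for 79.3% of all transcripts.

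The same comparison was made in each genotype, with 3 SD libraries against 3 LD libraries. At T1 both members were called higher under SD in 7 of 7 genotypes, where the share over all transcripts and genotypes was 13.2%. Leaving out each replicate letter in turn gave 5 to 7 genotypes for each member. For *GmCOL6a* the T1 difference lay between 0.95 ± 0.27 in L65-3366 and 1.85 ± 0.27 in *G. soja*, and for *GmCOL6b* between 1.04 ± 0.24 in Williams 82 and 1.84 ± 0.24 in *G. soja*. The *GmCOL6b* call in Williams 82 was lost without replicate A (0.74, adjusted p = 0.0624) or C (0.91, adjusted p = 0.0783), and the difference was 1.47 without replicate B. At T3 *GmCOL6a* was called lower under SD in 7 of 7 genotypes, with differences from -1.34 ± 0.27 in Williams 82 to -0.82 ± 0.27 in L74-441 (13.9% over all transcripts and genotypes), and in 4 of 7 without replicate C. The L74-441 call was lost with the median-of-ratios factor (-0.70, adjusted p = 0.0811 by limma) and without replicate B (-0.52, adjusted p = 0.311) or C (-0.79, adjusted p = 0.117). *GmCOL6b* was called lower at T3 only in *G. soja* (-0.64 ± 0.24, adjusted p = 0.0379 by limma), and this call was lost with the median-of-ratios factor (-0.50), with quantile normalization (-0.59) and without replicate B (-0.46) or C (-0.71). At T5 neither member was called in any of the 7 genotypes, against 14.9% of all transcripts and genotypes in either direction. The F-test of whether genotypes differed in the SD minus LD difference did not pass for *GmCOL6a* (F = 0.76, adjusted p = 1) or *GmCOL6b* (F = 0.97, adjusted p = 1), and it passed for 1.22% of all transcripts.

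The second comparison asked how 5 short days changed plants raised under LD. By the sampling ages in the methods of the study, the shift and the age of the plants cannot be told apart. It shares its LD libraries with the SD minus LD comparison. Before dawn both homeologs were higher under LD-SD than under LD, and in the afternoon the homeologs moved in opposite directions: *GmCOL6a* fell and *GmCOL6b* rose. At T1, *GmCOL6a* ranged from 28.6 through a median of 35.5 to 45.1 RPKM under LD-SD and from 6.45 through 19.4 to 56.3 RPKM under LD. *GmCOL6b* ranged from 27.7 through 41.7 to 49.0 RPKM under LD-SD and from 5.96 through 17.4 to 44.1 RPKM under LD. Of the LD libraries, 19 lay below every LD-SD library for *GmCOL6a* and 20 for *GmCOL6b*. The differences were 0.84 ± 0.10 and 1.14 ± 0.08 (adjusted p = 1.16e-13 and 1.65e-25 by limma), and 31.7% of all transcripts were called higher at T1.

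At T3, *GmCOL6a* ranged from 8.28 through a median of 13.4 to 27.4 RPKM under LD-SD and from 10.9 through 17.5 to 30.0 RPKM under LD, and the difference was -0.39 ± 0.10 (adjusted p = 0.000345 by limma). *GmCOL6b* ranged from 12.9 through 23.1 to 30.5 RPKM under LD-SD and from 6.08 through 12.7 to 21.7 RPKM under LD, and the difference was 0.77 ± 0.08 (adjusted p = 1.19e-14). The ranges overlapped for both genes, but 16 of the 21 LD-SD libraries had more *GmCOL6b* than any LD library. Of all transcripts, 32.4% were called lower, like *GmCOL6a*, and 21.6% higher, like *GmCOL6b*.

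At T5, *GmCOL6a* ranged from 15.7 through a median of 22.5 to 31.2 RPKM under LD-SD and from 16.9 through 27.2 to 37.9 RPKM under LD. Its difference of -0.25 ± 0.10 passed (adjusted p = 0.0336 by limma), and 14.4% of all transcripts were called lower. Without replicate A it was -0.08 (adjusted p = 0.681). *GmCOL6b* had a median of 22.1 RPKM under LD-SD and 23.2 RPKM under LD, with a difference of -0.10 ± 0.08 (adjusted p = 0.395).

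In single genotypes at T1, *GmCOL6a* was called higher under LD-SD than under LD in 5 of 7 and *GmCOL6b* in 7 of 7 (11.7% over all transcripts and genotypes). Without replicate C the counts were 2 of 7 for *GmCOL6a* and 5 of 7 for *GmCOL6b*, and without the 10 libraries named above they were 4 and 6. The *GmCOL6b* call in L66-432 was lost with the median-of-ratios factor (0.59, adjusted p = 0.0587) and without replicate C (0.38, adjusted p = 0.495). The differences at T1 lay between 0.36 ± 0.26 in L66-432 and 1.56 ± 0.26 in *G. soja* for *GmCOL6a*, and between 0.65 ± 0.22 in L66-432 and 1.90 ± 0.22 in *G. soja* for *GmCOL6b*. At T3, *GmCOL6b* was called higher in 4 of 7 genotypes (7.62% over all transcripts and genotypes) and its difference was positive in all 7, between 0.33 ± 0.22 in *G. soja* and 1.24 ± 0.22 in L74-441. *GmCOL6a* was called lower at T3 in 1 of 7 genotypes, L65-3366, at -0.75 ± 0.26 (8.27% over all transcripts and genotypes), a call lost with the median-of-ratios factor and without replicate B or C. The *GmCOL6a* difference at T3 was negative in 6 genotypes, among them Williams 82 at -0.04 ± 0.26, and positive in L74-441 at 0.07 ± 0.26. At T5 neither member was called in any genotype (3.78% over all transcripts and genotypes, in either direction). Differences among genotypes in the LD-SD minus LD response did not pass for *GmCOL6a* (F = 1.31, adjusted p = 0.717) or *GmCOL6b* (F = 2.31, adjusted p = 0.142), and passed for 1.31% of all transcripts. For *GmCOL6b* the same test passed without the 10 libraries named above (F = 2.77, adjusted p = 0.0427).

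**Figure D2:**
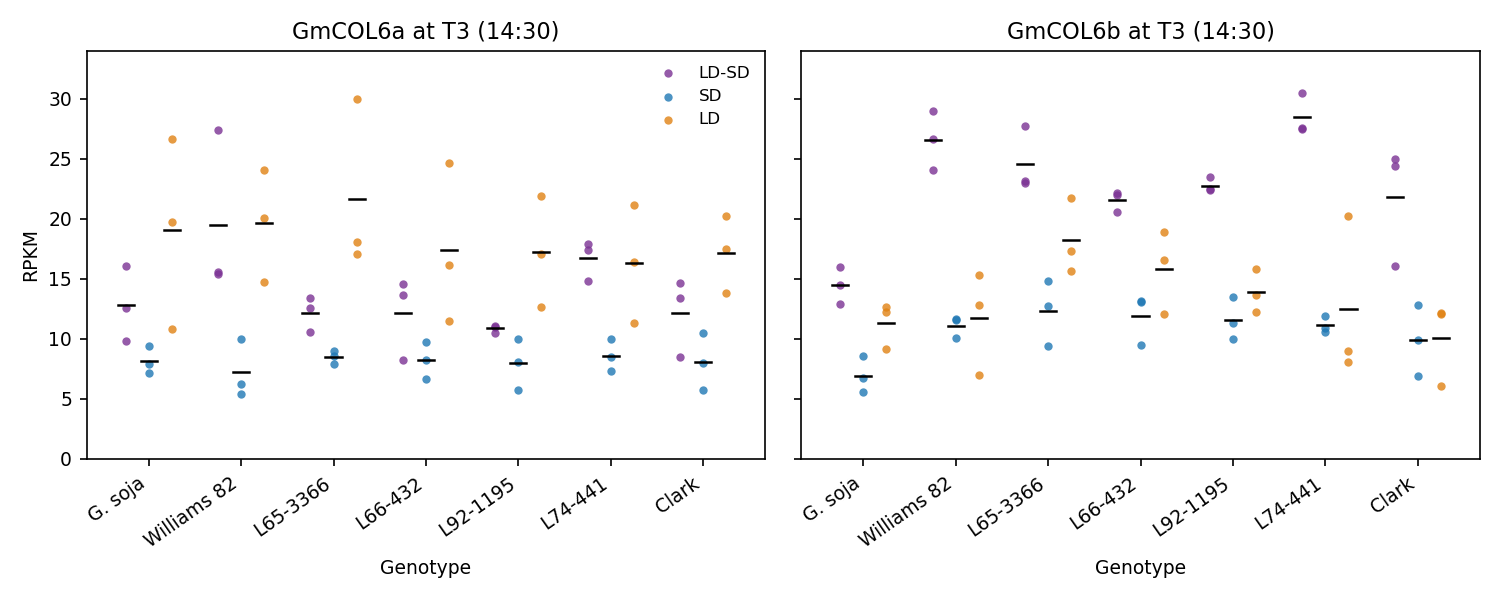
RPKM of *GmCOL6a* and *GmCOL6b* at T3 (y axis, linear) in each genotype (x axis) under LD-SD (purple), SD (blue) and LD (orange), with 3 libraries as points and their mean as a black line. *GmCOL6b* averages from 14.5 RPKM in *G. soja* to 28.5 RPKM in L74-441 under LD-SD, while under SD *GmCOL6a* lies at or below 10.5 RPKM in every library.

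The plants with 5 short days were then set against those raised under SD throughout. The shifted plants had less of both mRNAs at T1 and T5 and more of both at T3. At T1 the LD-SD minus SD difference was -0.39 ± 0.10 for *GmCOL6a* and -0.24 ± 0.08 for *GmCOL6b* (adjusted p = 0.000887 and 0.0223 by limma), and 15.3% of all transcripts were called lower. These T1 calls were the least stable: *GmCOL6a* was at -0.29 without replicate A (adjusted p = 0.077), and for *GmCOL6b* leaving out replicate A, B or C gave adjusted p values of 0.147, 0.0501 and 0.0772. At T3 the differences were 0.67 ± 0.10 and 1.03 ± 0.08 (adjusted p = 1.79e-09 and 4.75e-22), where 33.7% of all transcripts were called higher. For *GmCOL6b* 19 of 21 LD-SD libraries lay above every SD library at T3, and for *GmCOL6a* 17 of 21. At T5 both differences were negative and passed, at -0.45 ± 0.10 and -0.43 ± 0.08 (adjusted p = 5.94e-05 and 5.85e-06), and 29.7% of all transcripts were called lower.

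**Figure D3:**
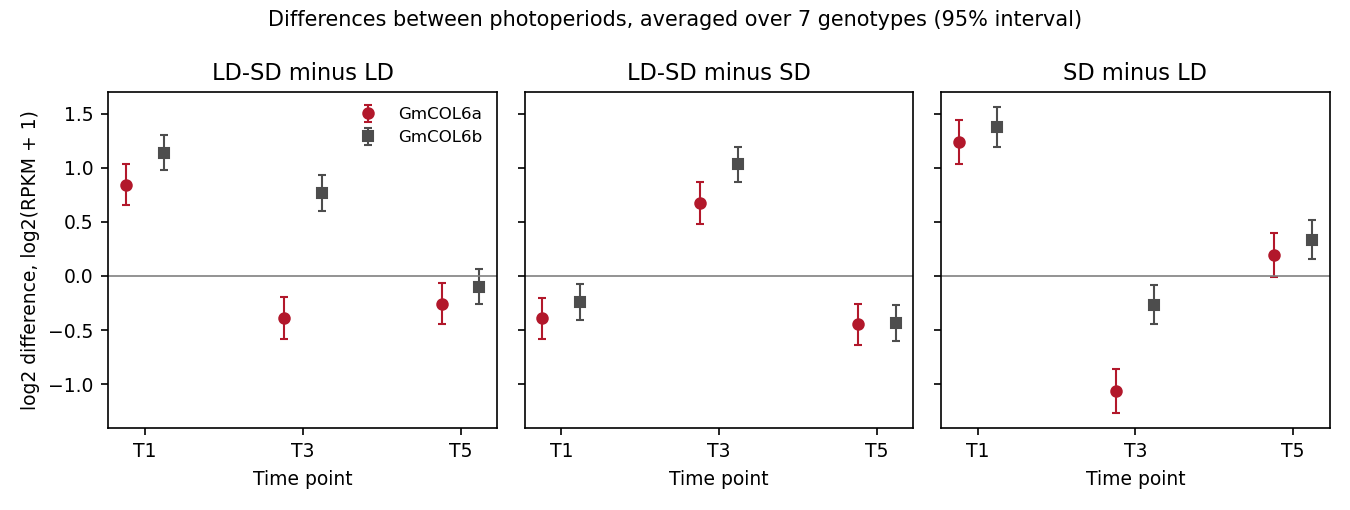
Differences between photoperiods on log2(RPKM + 1) (y axis) at T1, T3 and T5 (x axis), averaged over 7 genotypes, for *GmCOL6a* (red circles) and *GmCOL6b* (grey squares), with 95% intervals from limma; panels are LD-SD minus LD, LD-SD minus SD and SD minus LD. At T3 the LD-SD minus LD difference is -0.39 for *GmCOL6a* and 0.77 for *GmCOL6b*.

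The balance of the homeologs was followed as the ratio of *GmCOL6a* to *GmCOL6b* within each library, in which depth and scaling cancel. It was tested on log2 of (*GmCOL6a* + 0.1)/(*GmCOL6b* + 0.1), permuting labels 100000 times within genotype, two-sided, and with Benjamini-Hochberg adjustment over all 24 ratio comparisons. Over all 189 libraries the homeologs had nearly the same mean level, 25.6 ± 12.8 RPKM for *GmCOL6a* and 25.6 ± 12.6 RPKM for *GmCOL6b*. The ratio was close to 1 at T1 under LD-SD (0.909 ± 0.103) and SD (1.015 ± 0.116) and was 1.15 ± 0.272 under LD (n = 21 each). At T3 it was 0.614 ± 0.174 under LD-SD, 0.808 ± 0.295 under SD and 1.44 ± 0.398 under LD. At T5 it was 1.07 ± 0.185 under LD-SD, 1.07 ± 0.135 under SD and 1.19 ± 0.192 under LD.

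In the afternoon, *GmCOL6a* exceeded *GmCOL6b* in 2 of 21 LD-SD libraries and 5 of 21 SD libraries, against 19 of 21 LD libraries. The log2 ratio at T3 was differed by -1.22 ± 0.09 between LD-SD and LD (a ratio 0.429 times that of LD) and by -0.86 ± 0.12 between SD and LD (0.552 times). Both comparisons had the smallest p the permutations can give (1e-05, adjusted p = 6e-05). In every one of the 7 genotypes the 3 LD-SD libraries had a lower ratio than the 3 LD libraries at T3, without overlap, and the genotype differences lay between -1.66 in Clark and -0.86 in *G. soja*. Between SD and LD at T3 the ratio was lower under SD in 7 of 7 genotypes and the libraries did not overlap in 5, with overlap in L66-432 and *G. soja*. How often the ratio of other homeologous pairs, or of any 2 transcripts, differed as fully was not counted.

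The library values show this in single lines. In Clark at T3 the ratio was 0.530, 0.585 and 0.548 under LD-SD, 1.16, 0.446 and 1.06 under SD, and 2.28, 1.67 and 1.44 under LD. In L92-1195 it was 0.469, 0.470 and 0.493 under LD-SD, 0.574, 0.715 and 0.742 under SD, and 1.03, 1.08 and 1.60 under LD. The SD libraries of Clark spread widely, whereas the LD-SD libraries of both lines lay close together. At T3 the median counting error of the log2 ratio was 0.13 under LD-SD, 0.17 under SD and 0.13 under LD, and the standard deviation among the 21 libraries was 0.37, 0.48 and 0.39.

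**Figure D4:**
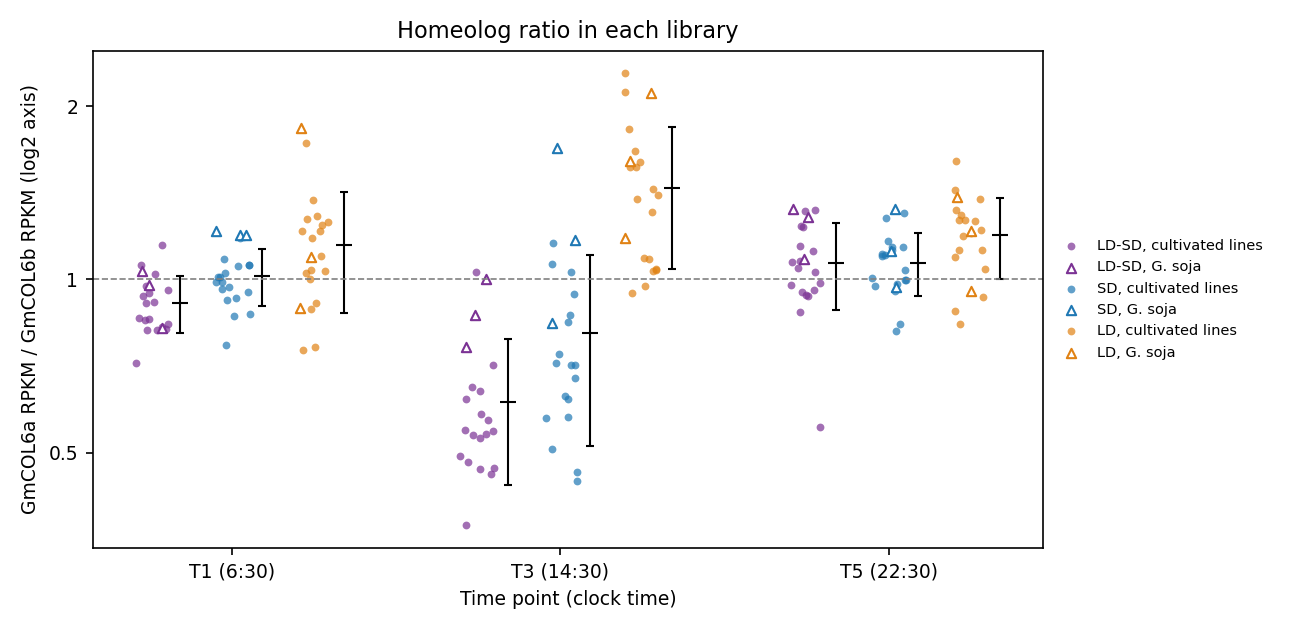
Ratio of *GmCOL6a* to *GmCOL6b* RPKM (y axis, log2 scale) in every library at T1, T3 and T5 (x axis) under LD-SD (purple), SD (blue) and LD (orange); circles are cultivated lines, triangles *G. soja*, and black bars the mean and standard deviation of 21 libraries. At T3 the means are 0.614 under LD-SD, 0.808 under SD and 1.44 under LD, while at T5 they lie between 1.07 and 1.19.

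At the other time points the differences in ratio were smaller. At T1 the ratio was lower under LD-SD than under LD (-0.31 ± 0.09, adjusted p = 0.00183 by the permutation test) and than under SD (-0.16 ± 0.04, adjusted p = 0.00347), but without replicate A these were -0.18 and -0.09 and neither passed (adjusted p = 0.137 and 0.206). Between SD and LD at T1 the difference was -0.15 ± 0.09 (adjusted p = 0.104), and without replicate C it was -0.24 and passed (adjusted p = 0.0123). At T3 the ratio under LD-SD was also below that under SD (-0.37 ± 0.12, adjusted p = 0.00707), and without replicate A this was -0.26 (adjusted p = 0.137). At T5 SD and LD differed by -0.15 ± 0.07 (adjusted p = 0.0462), a call lost without replicate A (-0.15, adjusted p = 0.132) or B (-0.11, adjusted p = 0.29). LD-SD differed from LD by -0.16 ± 0.08 (adjusted p = 0.0902) and from SD by -0.01 ± 0.07 (adjusted p = 0.87, 95% interval -0.16 to 0.14) at T5.

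Averaged over genotypes, the ratio within a day dipped at T3 under SD and LD-SD and peaked at T3 under LD. Single genotypes departed from this. Under LD the mean ratio was lowest at T3 in L65-3366 (1.17, against 1.195 at T5 and 1.21 at T1) and L66-432 (1.08, against 1.09 at T1). Under SD the mean ratio of *G. soja* was highest at T3 (1.23, against 1.14 at T5). Each of these margins was smaller than the standard deviation at T3 in that genotype. The log2 ratio at T3 against T1 differed by -0.40 ± 0.10 under SD (adjusted p = 0.000617), by -0.60 ± 0.07 under LD-SD (adjusted p = 6e-05) and by 0.31 ± 0.11 under LD (adjusted p = 0.0163, permutation tests). At T5 against T3 it differed by 0.47 ± 0.11 under SD (adjusted p = 0.00016), by 0.82 ± 0.09 under LD-SD (adjusted p = 6e-05) and by -0.24 ± 0.09 under LD (adjusted p = 0.0244). The LD differences were less firm. Without replicate C they were 0.17 (adjusted p = 0.214) and -0.09 (adjusted p = 0.448), the first was 0.36 (adjusted p = 0.0672) without replicate B, and the second was -0.21 without *G. soja* (adjusted p = 0.0504). Between T5 and T1 the ratio differed under LD-SD (0.22 ± 0.07, adjusted p = 0.00569), not without replicate A (0.20, adjusted p = 0.089) or C (0.18, adjusted p = 0.0783), and it did not pass under SD (0.07 ± 0.05, adjusted p = 0.161) or LD (0.07 ± 0.10, adjusted p = 0.509).

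The library of LD-SD L92-1195 at T5 without a matching replicate letter had a ratio of 0.553, from 17.2 RPKM of *GmCOL6a* and 31.1 RPKM of *GmCOL6b*, against 0.939 and 1.31 in the other 2 libraries of its group. It was the lowest ratio of the 21 LD-SD libraries at T5. Without the 10 libraries named above the LD-SD against LD difference in ratio was -0.18 at T5 (adjusted p = 0.0356) and -1.23 at T3 (adjusted p = 4.8e-05).

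The last comparison was among genotypes. *GmCOL6b* was lower in *G. soja* than in the cultivated lines under all 3 photoperiods, but not against every line at every time point. Averaged over time points, *GmCOL6b* differed between *G. soja* and the mean of the 6 cultivated lines by -0.42 ± 0.10 under LD-SD, -0.49 ± 0.11 under SD and -0.50 ± 0.11 under LD (adjusted p = 0.000162, 0.000102 and 9.46e-05 by limma). Lower in *G. soja* were 19.6%, 17.8% and 19.1% of all transcripts under these photoperiods. *GmCOL6a* was called lower in *G. soja* only under LD (-0.39 ± 0.12, adjusted p = 0.00641), which was lost without replicate A (-0.22, adjusted p = 0.299), and differed by -0.11 ± 0.11 under LD-SD and -0.15 ± 0.12 under SD. At SD T1 *GmCOL6b* had 38.6, 32.2 and 33.6 RPKM in *G. soja*, and the median of all 21 libraries, *G. soja* included, was 49.4 RPKM. At LD T3 its mean was lower in Clark (10.1 RPKM) than in *G. soja* (11.4 RPKM). At LD-SD T1 it was lower in L66-432 (35.3 RPKM) than in *G. soja* (36.8 RPKM). *G. soja* had the lowest *GmCOL6b* mean at every other combination of photoperiod and time point. The log2 ratio of *GmCOL6a* to *GmCOL6b* was higher in *G. soja* than in the cultivated lines by 0.27 ± 0.07, 1.21 times (adjusted p = 9.6e-05 by permutation within photoperiod and time point). Reads were aligned to Williams 82 transcripts, so that differences between a *G. soja* allele and that sequence can change how many reads are counted, and the part of this in the result was not tested.

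Among the cultivated lines no contrast was called. For each member, 15 contrasts set Williams 82, L65-3366, L66-432 and L74-441 against Clark and L92-1195 against L74-441 under each photoperiod. By limma 0 of 15 passed for *GmCOL6a* (0 at an unadjusted p under 0.05) and 0 of 15 for *GmCOL6b* (2 at an unadjusted p under 0.05), against 0.437% of all transcripts and contrasts. The differences lay between -0.27 and 0.27 for *GmCOL6a* and between -0.10 and 0.38 for *GmCOL6b*, and the 95% intervals reached from -0.56 to 0.56 and from -0.36 to 0.66. The F-test over all 7 genotypes passed for *GmCOL6b* under LD (F = 3.31, adjusted p = 0.0012), where 16.7% of all transcripts passed, but not without *G. soja* (F = 1.68, adjusted p = 0.86) or replicate C (F = 1.54, adjusted p = 0.509). For *GmCOL6b* under LD-SD it did not pass (F = 2.00, adjusted p = 0.0537, 25.2% of all transcripts), but it passed with the median-of-ratios factor (adjusted p = 0.0316), quantile normalization (adjusted p = 0.0268), values summed over a locus (adjusted p = 0.0484) and without LD Williams 82 T1 replicate B (adjusted p = 0.0239). It did not pass for *GmCOL6b* under SD (F = 1.65, adjusted p = 0.252, 14.5% of all transcripts), nor for *GmCOL6a* under LD-SD (F = 1.103, adjusted p = 0.524), SD (F = 0.37, adjusted p = 1) or LD (F = 1.91, adjusted p = 0.114). The ratio did not differ beyond the threshold in any of the 5 contrasts among cultivated lines, with log2 differences from -0.15 ± 0.08 (L66-432 against Clark) to 0.04 ± 0.08 (Williams 82 against Clark). Without the 10 libraries named above the ratio of L65-3366 against Clark passed (-0.17, adjusted p = 0.017), and without replicate B that of L66-432 against Clark passed (-0.23, adjusted p = 0.0371).

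The patterns most like the pair were sought among the 45419 transcripts whose mean reached 1 RPKM, by Pearson correlation of the 63 group means on log2(RPKM + 1), given as a description. The homeologs correlated with each other at r = 0.868. By this measure *GmCOL6b* ranked 127 among the transcripts most like *GmCOL6a*, and *GmCOL6a* ranked 14 among those most like *GmCOL6b*. The nearest to *GmCOL6a* were Glyma05g07700.1 (r = 0.938) and Glyma14g06740.1 (r = 0.929), and the nearest to *GmCOL6b* were Glyma08g40460.1 (r = 0.925) and Glyma05g29140.1 (r = 0.907). Within groups, the deviations of the homeologs from their group means correlated at r = 0.591 over the 189 libraries, which share depth and tissue.

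For context, 10 genes of the photoperiod pathway named in the study were read from the same fits: *GmCOL1a*, *GmCOL1b*, *GmCOL2a* and *GmCOL2b*, the florigen genes *GmFT2a* and *GmFT5a*, the flowering repressor *E1*, *GmGIa* (E2), a GIGANTEA homolog, and the phytochrome A genes *GmPHYA3* (E3) and *GmPHYA2* (E4). These genes were chosen with earlier results of these data known. Under SD against LD, 7 of 10 were higher and 3 lower at T1 (33.0% and 28.9% of all transcripts), 5 higher and 3 lower at T3 (20.3% and 43.6%), and 5 higher and 2 lower at T5 (35.3% and 20.4%). Those lower at T3 were *GmCOL2a*, *GmCOL2b* and *E1*, which averaged at most 1.89 RPKM at any photoperiod and time point. *GmCOL2b* and *E1* were also among those lower at T1, and *GmCOL2a* among those higher at T1 and T5. With a filter at a mean of 1 RPKM, 1 was lower at T1 and 0 at T3. *GmFT2a* averaged 22.9 RPKM under SD and 0.195 RPKM under LD at T1. *GmCOL1b*, a closer homolog of CONSTANS, averaged 674 RPKM under SD and 130 RPKM under LD at T1 (difference 2.38), and 25.2 RPKM under SD and 12.1 RPKM under LD at T3 (difference 1.012). *GmCOL1b* was thus higher under SD at T3, where *GmCOL6a* was lower. Under LD-SD against LD, 6 of 10 were higher and 3 lower at T1 (31.7% and 27.1% of all transcripts), 6 higher and 4 lower at T3 (21.6% and 32.4%), and 4 higher and 2 lower at T5 (17.8% and 14.4%). *GmCOL2b* and *E1* were again among those lower at T1, and *GmCOL2a*, *GmCOL2b* and *E1* among those lower at T3. The median LD-SD minus LD difference of the 10 was 0.31 at T3, and that of all transcripts was -0.04.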

How the data were processed

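The series comprised 189 RNA sequencing libraries of soybean. Reads of 63 groups were aligned by the authors with Bowtie (version not given in the sources used here) to Williams 82 transcripts and counted per transcript, and the deposited values are RPKM. How reads matching several transcripts were assigned is not stated, so the split of reads between the homeologs is uncertain, and strand was not stated. Of 73320 transcripts, 1 with infinite values was left out. Column names were matched to titles; 1 column was matched to its group only.

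Limma 3.58.1 in R 4.3.3 was fitted to log2(RPKM + 1) with 1 coefficient per group, eBayes with trend and a mean of at least 0.1 RPKM, on the 126 SD and LD samples for SD and LD results and on all samples otherwise. Because of the pseudocount, fold changes of low values are understated. Ratios used a pseudocount of 0.1 RPKM and a permutation test. Mapped reads per library and reads per member were recovered from steps in the RPKM values (all 189 values of each member came out whole within 0.05 of a read). Counting errors of the ratio were computed from these reads and cover counting error only, since PCR copies cannot be told apart. Intervals and standard errors of limma rest on the spread among replicates. Libraries were checked against genotype markers (log2 gap over 0.4). Replicates are biological by the labels.

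The members, gene list, rules and tests were chosen with earlier results of these data known. Named genes were the members, the 10 listed genes and, for each member, the 2 transcripts of other loci with the highest correlation. Scripts were tested on simulated data. Alternatives were another pseudocount, filter, scaling, variance model or fit, leaving out replicates, *G. soja* or doubted libraries, and a replicate block. Sequences and tissue markers of the members were not used here.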

Additional observations from a re-analysis of the deposited data

Results flagged for a closer look

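The SD minus LD difference changed over the day for both members, by limma's test of the interaction of photoperiod with time point. For *GmCOL6a* F was 127.1, with differences of 1.24 at T1, -1.06 at T3 and 0.19 at T5. For *GmCOL6b* F was 82.98, with differences of 1.38 at T1, -0.27 at T3 and 0.34 at T5.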

How the results depend on the processing

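Of 124 results, 83 kept their direction and their side of the threshold, or for counts stayed within 1.5 times, under every alternative run, and of 1699 values under an alternative 1619 did so. Among them were the differences of both members at T1 for SD minus LD and for LD-SD minus LD, and the lower ratio at T3 under SD or LD-SD against LD. Causes of the changes below were not tested.

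With the median-of-ratios factor the SD minus LD difference of *GmCOL6b* at T3 was -0.12, the count of genotypes was 0 for *GmCOL6b* in SD minus LD and 0 for *GmCOL6a* in LD-SD minus LD at T3, and the F among genotypes of *GmCOL6b* under LD-SD was 2.16. That F was 2.21 with quantile normalization, 2.00 summed over transcripts of a locus, and 2.25 without LD Williams 82 T1 replicate B, and passed in each. Quantile normalization also gave 0 genotypes for *GmCOL6b* in SD minus LD at T3. Without *G. soja* the SD minus LD difference of *GmCOL6b* at T3 was -0.20 with 0 genotypes called, its F among genotypes under LD was 1.68, and the ratio differed by -0.20 between LD-SD and LD at T5 and by -0.21 between T5 and T3 under LD. Without the 10 doubted libraries 121 of 124 values did so, among them genotype counts at T1 for LD-SD minus LD of 4 for *GmCOL6a* and 6 for *GmCOL6b*. The others were the genotype by photoperiod F of *GmCOL6b* for LD-SD minus LD (2.77) and the ratios of L65-3366 against Clark (-0.17) and of LD-SD against LD at T5 (-0.18). With a mean of at least 1 RPKM fewer listed genes were tested, and those lower numbered 1 at T1 and 0 at T3 for SD minus LD, and 1 at T1 and 1 at T3 for LD-SD minus LD.

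Leaving out each replicate letter in turn (the library without a letter stayed in) gave ranges. For limma differences these were -0.38 to -0.16 for *GmCOL6b* in SD minus LD at T3, -0.39 to -0.0807 for *GmCOL6a* in LD-SD minus LD at T5, -0.48 to -0.29 for *GmCOL6a* and -0.27 to -0.20 for *GmCOL6b* in LD-SD minus SD at T1, -0.37 to 0.021 for *GmCOL6a* at T3 minus T1 under LD, and -0.0457 to 0.0236 for *GmCOL6b* at T5 minus T3 under LD-SD. The F among genotypes of *GmCOL6b* was 1.54 to 4.79 under LD and 1.21 to 2.32 under LD-SD. Genotypes called numbered 4 to 7 for *GmCOL6a* and 0 to 1 for *GmCOL6b* in SD minus LD at T3, and 2 to 4 at T1 and 0 to 1 at T3 for *GmCOL6a* in LD-SD minus LD (5 without LD Williams 82 T1 replicate B). For the ratio at T1 they were -0.24 to -0.0942 (SD against LD), -0.38 to -0.18 (LD-SD against LD) and -0.24 to -0.0903 (LD-SD against SD). At T3 LD-SD against SD gave -0.50 to -0.26. At T5 they were -0.18 to -0.11 (SD against LD), -0.28 to -0.0583 (LD-SD against LD) and -0.10 to 0.0919 (LD-SD against SD). Between time points they were 0.17 to 0.40 (T3 against T1 under LD), 0.18 to 0.22 (T5 against T1 under LD-SD), 0.0219 to 0.14 (T5 against T1 under SD) and -0.33 to -0.0914 (T5 against T3 under LD), and L66-432 against Clark gave -0.23 to -0.0507, passing without replicate B.

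Samples with the same replicate letter tended to deviate together, but not in every pair, and no label says that a letter marks a shared batch, so the letters were not taken as pairing the samples. Deviations from group means correlated at a mean r of 0.187 over 561 pairs with the same letter, of which 376 exceeded 0.1, and at -0.092 over 1122 pairs with different letters, of which 212 did. Deviations within a group cancel, so the mean over different letters largely follows from that over the same letter and is no separate comparison. With the replicate block 9 of 124 values changed. The SD minus LD difference of *GmCOL6a* at T5 (0.19) passed (adjusted p = 0.0463 by limma), as did F among genotypes of *GmCOL6b* under SD (2.54) and LD-SD (2.86) and of *GmCOL6a* under LD (2.73), and the genotype by photoperiod F of *GmCOL6b* for LD-SD minus LD (3.28, adjusted p = 0.00448). Genotypes called at T3 numbered 2 for *GmCOL6b* in SD minus LD and 2 for *GmCOL6a* in LD-SD minus LD. The ratio differed by 0.0382 between LD-SD and SD at T5 and by -0.24 between T5 and T3 under LD, which no longer passed.

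Depth limits the ratio most at T3 under SD, where levels are lowest. The tissue could not be checked, and reads shared by the homeologs could not be separated.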
